A study of Mus musculus with 16 samples.

Results

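The comparison set colonic mucosa of mice given the hapten dinitrobenzene sulfonic acid (DNBS) into the rectum and the bacterium Nissle, a probiotic strain of Escherichia coli, by mouth (DNBS_Nissle) against colonic mucosa of healthy control mice. The samples were chosen by their labels alone, 4 DNBS_Nissle samples (numbers 1, 4, 5 and 7) and 4 healthy samples (numbers 3, 4, 5 and 6), 8 of the 16 samples of the study. The other samples were 4 from mice given DNBS with oral bacterium CEC and 4 from mice given DNBS with oral phosphate-buffered saline (PBS), and the healthy mice also took PBS by mouth. Strain, sex, age and the time between treatment and sampling of the mice were not given in the sources used here. RNA was read by real-time PCR on an inflammation panel of 648 TaqMan assays for 584 genes, of which 568 were not control genes. The study's text says that RNA of the mice was pooled in equal amounts, but each sample has a number of its own. Whether a sample stands for 1 mouse or for several is therefore unknown, and the p-values measure the spread between samples.

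DNBS binds to proteins of the gut wall and makes them targets of the immune system, which gives an acute colitis. In such tissue, epithelial and stromal cells release CXC chemokines, neutrophils follow them out of the blood with the receptor CXCR2 after rolling on selectins, and neutrophils and monocytes then release calprotectin, interleukin 1 beta and nitric oxide. Strain Nissle is a non-pathogenic gut isolate that is used in people as a probiotic in ulcerative colitis. DNBS and Nissle were given together in the DNBS_Nissle mice, so their parts in a difference from healthy mucosa cannot be told apart in this comparison.

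A level is the mean cycle threshold (Ct) of 13 reference genes less the Ct measured for the gene. This is a log2 scale on which a higher value means more RNA, and folds are 2 to the power of the difference, taking each cycle as a doubling. A Ct above 28 counted as not detected. The DNBS_Nissle samples had 558.2 ± 6.2 detected assays, against 535 ± 5.0 in the healthy samples (mean ± SD, n = 4 each, exact permutation p = 0.0286, the smallest that 4 against 4 samples allow). Their mean reference Ct was 19.07 ± 0.47, against 19.58 ± 0.37 in the healthy samples (SD, n = 4 each, exact permutation p = 0.143). Of the 13 reference genes, 1 varied widely, with a within-group SD of 3.47 and Ct values of 17.90 to 26.83 in these samples. It was at 26.83 in healthy sample 3 and at 24.76 in DNBS_Nissle sample 5. Without it and another reference gene, the genes that passed were the same. The part of the difference in mean reference Ct in the results was not tested. In the deposited table, some values are the exact average of their group's remaining samples and were read as filled-in gaps: DNBS_Nissle sample 1 held 61 and healthy sample 3 held 57, against 1 to 12 in the other samples.

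Of the 568 panel genes, 457 were tested because 3 or more samples of each group detected them, 20 were detected mostly in 1 group, 52 were in none of the 8 samples, and 39 fell between these classes. In limma, 11 of the 457 genes rose (2.41%) and 0 fell (0%) at an adjusted p under 0.05. At an unadjusted p under 0.05 there were 42 higher and 35 lower genes, and whatever their p, 191 of the 457 genes were higher and 266 lower. The 11 genes were those of calprotectin (S100a8 and S100a9), the neutrophil chemokine Cxcl5 and its receptor Il8rb, the cytokines Il1b, Spp1 and Inhbb, the lectin Chi3l3, the selectin Selp, the nitric oxide synthase Nos2 and the hypoxia-induced transcription factor Hif1a. Every DNBS_Nissle sample exceeded every healthy sample in each of the 11, as in 34 of the tested genes (7.44%), while 29 (6.35%) had every DNBS_Nissle sample below every healthy sample. The median difference over all tested genes was −0.09 and the median SE 0.46, and other choices of reference moved that median between −0.22 and 0.08.

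**Figure D1:**
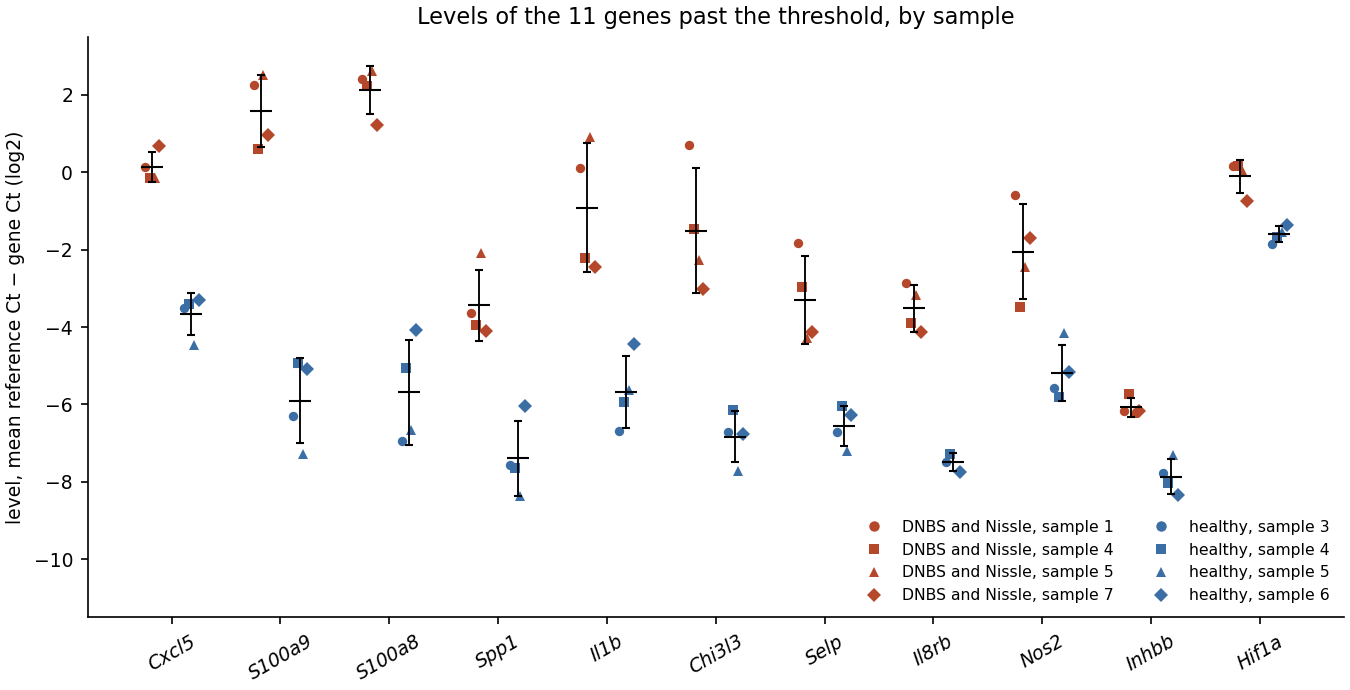
Levels on a log2 scale (mean reference Ct minus gene Ct) of the 11 genes past the threshold, one symbol for each sample, DNBS_Nissle left of healthy. Horizontal marks are means and bars are SD (n = 4 per group, 3 for Il8rb in healthy samples). No healthy sample reaches the lowest DNBS_Nissle sample in any of the 11 genes.

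**Figure D2:**
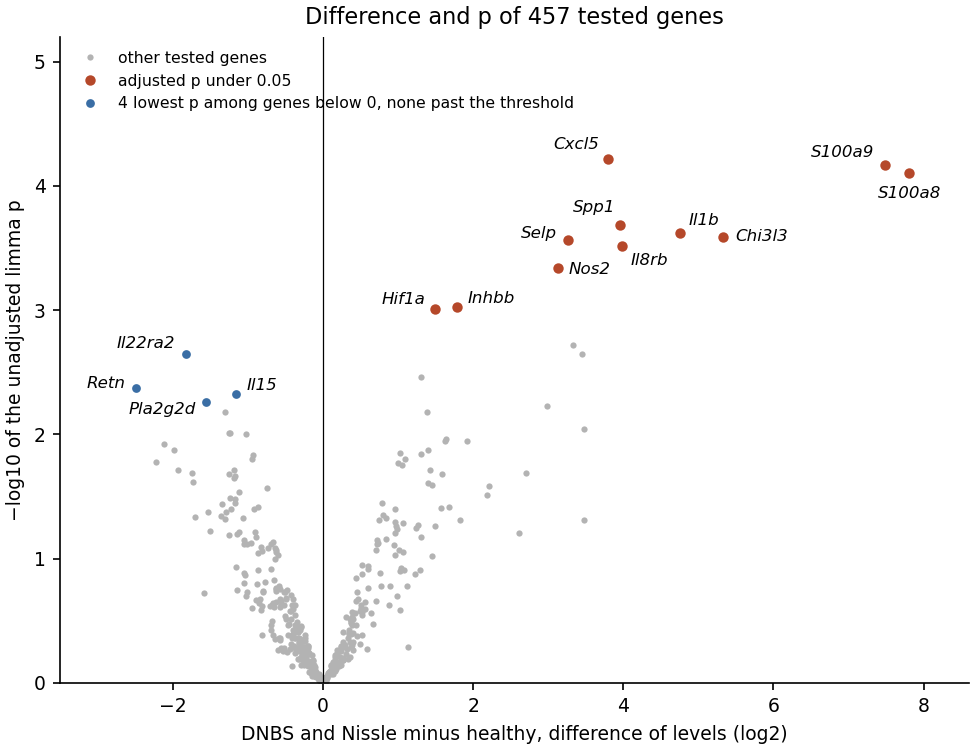
Difference of levels, DNBS_Nissle minus healthy (log2), against −log10 of the unadjusted limma p for 457 genes. The 11 genes past the threshold all lie on the higher side, from Hif1a at 1.50 to S100a8 at 7.81, and the lowest adjusted p on the lower side is 0.0742 (Il22ra2).

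The largest differences belonged to calprotectin, a metal-binding protein that makes up much of the cytosol of neutrophils and is measured in stool as a marker of gut inflammation. S100a8 was at 2.42, 2.23, 2.62 and 1.23 in DNBS_Nissle samples 1, 4, 5 and 7, against −6.95, −5.06, −6.66 and −4.07 in healthy samples 3, 4, 5 and 6. It rose by 7.81 ± 1.50 (± SE), or 224-fold, with a 95% interval of 4.64 to 10.98 on the log2 scale (limma adjusted p = 0.0120). The DNBS_Nissle samples lay within less than 2 cycles of each other, and the healthy samples were spread more widely (SD 0.62, against 1.36 in healthy samples). Both S100a8 assays showed the gap: the first ran from a Ct of 16.78 to 18 in DNBS_Nissle samples, against 23.94 to 27.11 in healthy samples, and the second from 16.19 to 16.93, against 23.27 to 27.02. Its partner S100a9 was at 2.24, 0.61, 2.52 and 0.96 in DNBS_Nissle samples, against −6.30, −4.92, −7.28 and −5.09 in healthy samples, a rise of 7.48 ± 1.41 or 178-fold (limma adjusted p = 0.0120). In bulk mucosa, more cells of a type and more RNA per cell cannot be told apart.

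The granule genes of neutrophils that were detected also had higher values. Ltf, the iron-binding protein lactoferrin, was at −3.58, −3.09, −4.05 and −3.18 in DNBS_Nissle samples, against −6.81, −7.32, −6.02 and −7.57 in healthy samples. The groups did not overlap, but the difference of 3.45 ± 0.95 did not pass (limma adjusted p = 0.0742), and the value of DNBS_Nissle sample 1 was a filled one. Camp, the precursor of the antimicrobial peptide cathelicidin, was detected in 4 of 4 DNBS_Nissle samples (Ct 23.49 to 26.82) and in 0 of 4 healthy samples (Ct 28.8 to 30.6), at least 4.70-fold higher, or 3.20-fold without DNBS_Nissle sample 1. Mmp25, a membrane-bound protease of neutrophils, was detected in 4 of 4 against 1 of 4 samples, at least 3.18-fold higher. With 1 sample left out, its bound lay between 2.56-fold (without DNBS_Nissle sample 1) and 5.01-fold (without DNBS_Nissle sample 4). Prtn3, a serine protease of primary granules, was detected in none of the 8 samples. Over the 6 neutrophil markers on the panel, the sum of linear levels lay between 4.48 and 12.1 in DNBS_Nissle samples, against 0.0317 to 0.0987 in healthy samples. S100a8 and S100a9 make up most of this sum, so it largely repeats their difference. Their mean levels in DNBS_Nissle samples were 2.1 and 1.6, with the other markers between −6.57 (Mmp25) and −3.48 (Ltf).

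Il8rb, now named Cxcr2, is the receptor with which neutrophils follow CXC chemokines. It was at −2.86, −3.90, −3.16 and −4.13 in DNBS_Nissle samples, against −7.49, −7.27 and −7.74 in healthy samples 3, 4 and 6, and it was not detected in healthy sample 5. The fit left that value out and gave a rise of 3.98 ± 0.86, or 15.8-fold (limma adjusted p = 0.0175). The value of healthy sample 3 was a filled one, and without filled values Il8rb had too few healthy values to be tested. The related receptor Il8ra (Cxcr1) was at −0.64 ± 0.81, with no call, and was the 1 lower gene of the list.

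Among the chemokines that bind this receptor, Cxcl5, which epithelial cells and fibroblasts release, was the one that passed. It was at 0.13, −0.15, −0.15 and 0.67 in DNBS_Nissle samples, against −3.51, −3.40, −4.46 and −3.30 in healthy samples. It rose by 3.79 ± 0.71, or 13.8-fold (limma adjusted p = 0.0120), and both groups were tight (SD 0.39 in DNBS_Nissle samples and 0.53 in healthy samples). Cxcl1, the mouse keratinocyte-derived chemokine, was at −0.07, −2.77, −2.89 and −4.28 in DNBS_Nissle samples, against −5.29, −5.69, −6.71 and −5.61 in healthy samples. Its difference of 3.32 ± 0.90 did not pass (limma adjusted p = 0.0734). It was 2.51 without DNBS_Nissle sample 1, the highest of its group, and the value of healthy sample 3 was filled. Its call in limma changed with the settings, at an adjusted p of 0.0379 with a detection limit of 30 and 0.102 without filled values. Its assay outside the main fit ran from a Ct of 19.0 to 23.04 in DNBS_Nissle samples, against 24.71 to 28.29 in healthy samples. Ppbp, the platelet chemokine precursor, was at 1.82 ± 0.86 (limma adjusted p = 0.291) and did not overlap between the groups, with a filled value in DNBS_Nissle sample 1.

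Cxcl3 and Cxcl2 were near or beyond the limit of detection in healthy mucosa. Cxcl3 had Ct values of 19.78, 21.55, 20.28 and 22.81 in DNBS_Nissle samples, against 40, 30.52, 40 and 24.23 in healthy samples 3, 4, 5 and 6. It was at least 43.4-fold higher in DNBS_Nissle samples (4 of 4 against 1 of 4 detected). With 1 sample left out, the bound lay between 30.6-fold (without DNBS_Nissle sample 5) and 82.5-fold (without healthy sample 6, where it was detected). Both wells at 40 had no amplification, and a failed well cannot be told from little RNA. Cxcl2 was at −0.36, −3.88, 0.83 and −3.80 in DNBS_Nissle samples, against −8.08 and −6.98 in healthy samples 5 and 6, and was not detected in healthy samples 3 and 4. With 2 healthy values it was not tested, and DNBS_Nissle samples 1 and 5 stood above samples 4 and 7. Of the 5 tested genes of the list of neutrophil chemokines and receptors, 4 were higher and 2 passed, with a median of 3.32. Over all 457 tested genes, 191 were higher and 11 passed, with a median of −0.09.

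The promoters of genes in these groups are shown from 250 bases before to 50 after the annotated start, from RefSeq on GRCm38.p6. They were searched on both strands for the TATA box letters TATAAA and for an NF-kappaB type motif (GGGA, 2 bases of any kind, T, 1 base of any kind, then CC), and capitals mark the matches. Of the 11 genes that rose, 9 matched an entry by symbol or synonym, 5 of them had TATAAA in the window and 1 had the NF-kappaB type motif. Of all 32851 promoters, 13.6% held TATAAA and 4.01% the NF-kappaB type motif. S100a8 is at chr3:90668821-90669120 (plus strand), Il1b at chr2:129371090-129371389 (minus strand), Cxcl1 at chr5:90890995-90891294 (plus strand) and Cxcl3 at chr5:90785851-90786150 (plus strand).
S100a8: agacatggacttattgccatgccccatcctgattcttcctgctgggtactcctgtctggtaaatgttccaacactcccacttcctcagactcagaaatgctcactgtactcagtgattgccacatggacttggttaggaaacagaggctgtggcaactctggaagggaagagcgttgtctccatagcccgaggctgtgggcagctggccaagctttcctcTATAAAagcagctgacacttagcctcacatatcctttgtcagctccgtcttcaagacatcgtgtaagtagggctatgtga
Il1b: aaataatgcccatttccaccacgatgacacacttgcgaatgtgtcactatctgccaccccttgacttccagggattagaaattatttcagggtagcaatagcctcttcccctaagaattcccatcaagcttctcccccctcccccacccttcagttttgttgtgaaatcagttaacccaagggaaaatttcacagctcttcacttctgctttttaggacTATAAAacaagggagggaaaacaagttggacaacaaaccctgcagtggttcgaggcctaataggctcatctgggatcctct
Cxcl1: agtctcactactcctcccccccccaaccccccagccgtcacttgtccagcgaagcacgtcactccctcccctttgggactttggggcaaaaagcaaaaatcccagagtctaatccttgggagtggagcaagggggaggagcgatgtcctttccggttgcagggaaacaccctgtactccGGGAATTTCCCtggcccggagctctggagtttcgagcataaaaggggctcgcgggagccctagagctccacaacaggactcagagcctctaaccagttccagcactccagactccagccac
Cxcl3: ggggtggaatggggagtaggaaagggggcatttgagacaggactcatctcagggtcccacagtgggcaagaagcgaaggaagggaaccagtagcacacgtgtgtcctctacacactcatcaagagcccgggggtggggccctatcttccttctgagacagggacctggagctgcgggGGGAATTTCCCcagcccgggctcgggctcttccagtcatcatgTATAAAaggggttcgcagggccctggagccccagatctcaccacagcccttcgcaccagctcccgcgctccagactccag
S100a8 and Il1b, both among the genes that rose, held TATAAA at positions −30 and −31 from the start. The remaining TATAAA matches of genes that rose were S100a9 at 0, Chi3l3 at −3 and Spp1 at −211, with no match in another Spp1 entry. The gene that rose and held the NF-kappaB type motif was Chi3l3, at −231. Cxcl3 held TATAAA at −30 and Cxcl1 did not hold it. The chemokines Cxcl1 and Cxcl3 and the cytokine Il6, all on chromosome 5, were added to the search and were not among the 11 genes that rose. Cxcl1 and Cxcl3 held the NF-kappaB type motif at −71 and −73, on both strands with 1 base of offset, so that the capitals cover both matches. Il6, whose sequence is not shown, held it at −44. A match describes letters in the window and not a bound site.

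Among the chemokines of monocytes and lymphocytes, Ccl7, which acts on CCR2, had the lowest p. Ccl7 was at −0.29, −3.13, −3.62 and −4.34 in DNBS_Nissle samples, against −7.05, −5.31, −5.77 and −5.17 in healthy samples. The groups did not overlap, but the difference of 2.98 ± 0.94 did not pass (limma adjusted p = 0.142), and it was 2.13 without DNBS_Nissle sample 1. Ccl4 was at −2.02, −4.59, −2.91 and −7.14 in DNBS_Nissle samples, against −7.53, −8.26 and −7.13 in healthy samples 4, 5 and 6. Here DNBS_Nissle sample 7 lay within the healthy range, and the difference of 3.48 ± 1.16 did not pass (limma adjusted p = 0.183). Leaving out 1 sample moved the Ccl4 difference between 2.76 (without DNBS_Nissle sample 1) and 4.47 (without DNBS_Nissle sample 7). In the latter fit Ccl4 was called in limma, but that fit was singled out after it was seen. Ccl3, with 3 healthy values, was at 3.48 ± 1.63 and Ccl2 at 1.49 ± 0.72, neither past the threshold. Of 15 tested CC chemokines, 8 were higher and 7 lower, beside 191 higher and 266 lower of all 457 genes. None of the 15 passed, and their median was 0.21, against −0.09 over all genes.

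Among the cytokines, Il1b, the secreted interleukin 1 that drives fever and neutrophil recruitment, rose by 4.76 ± 1.02, or 27.1-fold (limma adjusted p = 0.0175). With a detection limit of 26 the adjusted p in limma was 0.0536. Il1b was at 0.10, −2.21, 0.90 and −2.46 in DNBS_Nissle samples, against −6.70, −5.93, −5.63 and −4.44 in healthy samples. DNBS_Nissle samples 1 and 5 stood at least 2 cycles above samples 4 and 7, as in Cxcl2, and all 4 were above the healthy samples. Its 2 assays ran from a Ct of 18.45 to 21.88 and from 19.21 to 21.55 in DNBS_Nissle samples, against 24.36 to 26.27 and 23.59 to 27.36 in healthy samples. Among the other 10 tested genes of the interleukin 1 family, 7 were higher and none passed, beside 191 higher and 11 passing of all 457. The receptor Il1rl1 (ST2) was at 1.68 ± 0.75, the receptor subunit Il18rap at 1.31 ± 0.48 and the alarmin Il33 at 0.84 ± 0.39, each with no overlap between groups. The values of Il1rl1 and Il33 in DNBS_Nissle sample 1 were filled. Il1f9, interleukin 36 gamma, was detected in 3 of 4 against 0 of 4 samples.

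Il6 and Il17a were at the limit of detection in healthy mucosa. Il6, an acute-phase cytokine, had Ct values of 19.56, 23.93, 23.05 and 25.67 in DNBS_Nissle samples, against 28.79, 29.95, 29.79 and 26.63 in healthy samples. All 4 DNBS_Nissle samples and 1 healthy sample detected it, and the difference was at least 17.1-fold, or 7.80-fold without DNBS_Nissle sample 1. Its other assays were detected in 4 of 4 against 0 of 4 and in 4 of 4 against 1 of 4 samples. Il17a, the cytokine of type 17 T cells that induces CXC chemokines, had Ct values of 23.97, 25.87, 25.37 and 26.01 in DNBS_Nissle samples, against 30.55, 29.23, 31.62 and 30.79 in healthy samples. It was at least 4.54-fold higher, and every healthy sample amplified later than every DNBS_Nissle sample. The healthy sample 3 values of Il6 and Il17a were filled. Il22, which acts on the epithelium, was detected in 2 DNBS_Nissle samples and 0 healthy samples, and Ifng in 4 and 2, neither enough for a test. The other Ifng assay was detected in 1 of 4 against 0 of 4 samples. Il10 was detected in none of the 8 samples.

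Tnf and several other inflammatory genes did not pass the threshold. Tnf was at −2.78, −7.77, −4.16 and −5.10 in DNBS_Nissle samples, against −5.96, −7.04, −5.49 and −6.23 in healthy samples. DNBS_Nissle sample 4 was the lowest of all 8, the groups overlapped, and the difference of 1.23 ± 0.77 had a 95% interval of −0.41 to 2.86 (limma adjusted p = 0.457). Its receptor Tnfrsf1b was at 0.13, −0.31, −0.73 and −1.12 in DNBS_Nissle samples, against −2.24, −2.0, −1.83 and −1.50 in healthy samples, with no overlap and a difference of 1.38 ± 0.45 (limma adjusted p = 0.145). The T cell costimulator Tnfrsf9, at 1.63 ± 0.57 over 3 healthy values, did not overlap between groups either. Of the 21 tested tumour necrosis factor ligands and receptors, 11 were higher and none passed, beside 191 higher and 11 passing of all 457. Their median was 0.16, against −0.09 over all genes. Cxcl10, induced by interferon, was at 2.19 ± 0.93, and its highest sample, DNBS_Nissle sample 1 at 1.13, lay about 4 cycles above the next. The value of healthy sample 3 was filled there. Tgfb1, a suppressive cytokine, was at 0.30 ± 0.43 and Tlr4, the receptor for bacterial lipopolysaccharide, at 0.40 ± 0.46. Their 95% intervals were −0.61 to 1.22 and −0.57 to 1.38.

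Nos2, the inducible enzyme that makes nitric oxide, and Hif1a, the transcription factor that responds to low oxygen, both rose. Nos2 was at −0.58, −3.48, −2.45 and −1.70 in DNBS_Nissle samples, against −5.58, −5.81, −4.17 and −5.17 in healthy samples, a rise of 3.13 ± 0.72 or 8.76-fold (limma adjusted p = 0.0233). The lowest DNBS_Nissle sample, number 4, was less than 1 cycle above healthy sample 5. Hif1a was at 0.15, 0.15, 0.00 and −0.74 in DNBS_Nissle samples, against −1.85, −1.67, −1.53 and −1.37 in healthy samples. Its rise of 1.50 ± 0.37, or 2.82-fold, was the smallest of the 11 (limma adjusted p = 0.0405). In limma its adjusted p was 0.0762 with the 3 most stable reference genes, 0.0536 with a detection limit of 26 and 0.0615 without values of 4 or fewer decimals. Hmox1, which degrades haem, was at −2.17, −1.88, −1.83 and −2.47 in DNBS_Nissle samples, against −3.51, −3.25, −4.24 and −3.05 in healthy samples, with no overlap but no call (1.42 ± 0.55, limma adjusted p = 0.208). Ptgs2, the inducible cyclooxygenase, was at 2.21 ± 0.90 (limma adjusted p = 0.228), and its value in healthy sample 3 was filled.

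Chi3l3 and Spp1 are products of macrophages and other myeloid cells. Chi3l3, now named Chil3, encodes the chitinase-like lectin Ym1. It was at 0.71, −1.47, −2.26 and −3.02 in DNBS_Nissle samples, against −6.72, −6.14, −7.72 and −6.77 in healthy samples, a rise of 5.33 ± 1.13 or 40.1-fold (limma adjusted p = 0.0175). The Chi3l3 call was lost under 4 other settings of the detection limit, the undetected values or the filter, with adjusted p-values in limma of 0.0628 to 0.0768 at the same difference. Spp1, or osteopontin, a matrix protein and cytokine, was at −3.65, −3.95, −2.08 and −4.10 in DNBS_Nissle samples, against −7.56, −7.63, −8.36 and −6.03 in healthy samples, a rise of 3.95 ± 0.83 or 15.5-fold (limma adjusted p = 0.0175). DNBS_Nissle sample 1 led in Chi3l3 and sample 5 in Spp1. Of the other macrophage markers, Cd14 was at 0.98 ± 0.47, Mrc1 at −0.19 ± 0.43 and Ccr2 at −0.29 ± 0.57, with no call. Of 11 tested macrophage products and complement genes, 7 were higher and 2 passed, beside 191 higher and 11 passing of all 457, and the median was 0.32. The acute-phase protein Saa3 was at 1.58, 0.70, 0.56 and −1.99 in DNBS_Nissle samples, against −4.58, 0.97, −4.44 and −1.57 in healthy samples. Healthy sample 4 lay among the DNBS_Nissle samples and the difference of 2.62 ± 1.31 did not pass (limma adjusted p = 0.322).

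The selectins of activated endothelium were also higher. Selp, or P-selectin, was at −1.83, −2.95, −4.27 and −4.14 in DNBS_Nissle samples, against −6.71, −6.03, −7.20 and −6.29 in healthy samples. It rose by 3.26 ± 0.71, or 9.57-fold (limma adjusted p = 0.0175). Sele, or E-selectin, was detected in 4 of 4 DNBS_Nissle samples (Ct 24.98 to 26.8) and in 0 of 4 healthy samples (29.33, 30.48, 40 and 40), at least 3.18-fold higher. Its value in DNBS_Nissle sample 1 was a filled one. The leukocyte integrin subunits Itgam (1.13 ± 0.78), Itgb2 (0.76 ± 0.48) and Itgal (0.38 ± 0.45) had no call.

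Activin B is built from subunits encoded by Inhbb, which was at −6.18, −5.72, −6.23 and −6.17 in DNBS_Nissle samples, against −7.78, −8.03, −7.30 and −8.35 in healthy samples. It rose by 1.79 ± 0.44, or 3.46-fold (limma adjusted p = 0.0405). The value of DNBS_Nissle sample 1 was filled, and with filled values left out the adjusted p in limma was 0.094. It was 0.076 with the 3 most stable reference genes and 0.056 with the global mean. The other activin subunit Inhba was at 1.40 ± 0.50 over 3 healthy values, with no overlap and no call. Outside these groups, Lrp8, a receptor for apolipoprotein E and reelin, was at −4.66, −3.73, −4.47 and −4.20 in DNBS_Nissle samples, against −5.82, −5.75, −5.48 and −5.23 in healthy samples (1.31 ± 0.38, limma adjusted p = 0.106). The epithelial mucin Muc1 was at 1.65 ± 0.57 (limma adjusted p = 0.185), and also did not overlap.

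No gene fell past the threshold, and the lower side was led by Il22ra2, a soluble decoy that binds interleukin 22 and blocks it. Il22ra2 was at −5.70, −7.06, −5.76 and −5.98 in DNBS_Nissle samples, against −4.16, −4.06, −4.67 and −4.30 in healthy samples. Every DNBS_Nissle sample was more than 1 cycle below every healthy sample, with a difference of −1.83 ± 0.51 and a 95% interval of −2.90 to −0.76 (limma adjusted p = 0.0742). It passed under 5 other settings, with the 3 most stable reference genes (−1.96), the global mean (−1.86), quantile normalization (−1.69), a detection limit of 26 (−1.83) and a fit of the 8 samples alone (−1.83). Il15, which sustains natural killer and memory T cells, was at −3.51, −3.73, −3.36 and −3.95 in DNBS_Nissle samples, against −2.55, −2.45, −2.40 and −2.54 in healthy samples. The healthy samples were within 0.16 of each other and the DNBS_Nissle samples all lay below them (−1.15 ± 0.35, limma adjusted p = 0.128). Pla2g2d, a secreted phospholipase of dendritic cells, was at −6.19, −7.19, −4.86 and −5.60 in DNBS_Nissle samples, against −4.66, −4.63, −3.77 and −4.55 in healthy samples (−1.56 ± 0.48, limma adjusted p = 0.139). Irf7, a factor that turns on type I interferon genes, was at −1.83, −1.91, −1.66 and −2.25 in DNBS_Nissle samples, against −0.59, −1.01, −1.31 and −0.63 in healthy samples (−1.03 ± 0.35, limma adjusted p = 0.183). The groups did not overlap in Hdac5 (−1.31 ± 0.42), Ltbp4 (−1.23 ± 0.42) and Flt3l (−0.93 ± 0.34) either, with filled values of Hdac5 and Ltbp4 in DNBS_Nissle sample 1.

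Several receptors of lymphocytes and dendritic cells were lower in 3 of the 4 DNBS_Nissle samples. Xcr1, the chemokine receptor of cross-presenting dendritic cells, was at −6.77, −7.28, −3.59 and −6.99 in DNBS_Nissle samples, against −2.53, −4.01, −4.90 and −4.73 in healthy samples. Sample 5 lay inside the healthy range, and the difference of −2.12 ± 0.75 did not pass (limma adjusted p = 0.188). Ccr6 (−1.73 ± 0.70) and Ccr9 (−1.53 ± 0.69), which guide lymphocytes and dendritic cells into gut tissue, had their highest DNBS_Nissle value in sample 5 too, at −4.75 and −3.95, with the other samples between −8.41 and −7.05 and between −7.68 and −6.14. Without sample 5, Xcr1 (−2.97), Ccr6 (−2.47), Ccr9 (−2.27), Pla2g2d (−1.92) and the chemokine receptor Cx3cr1, at −1.19 ± 0.47 with all samples, passed in limma. These 5 genes were singled out after that fit was seen. Of 18 tested chemokine receptors, 12 were lower and none passed, with a median of −0.23, beside 266 lower of all 457 genes and a median of −0.09. The T cell genes Cd4 (−0.88 ± 0.59) and Cd28 (−1.26 ± 0.64) did not overlap between groups, with no call. Of the 10 tested genes of T cell identity and costimulation, however, 5 were higher and 5 lower, and none passed. Their median was 0.14, with a sign that changed with the reference, and 191 of all 457 genes were higher. The summed level of the T cell markers, of which 2 of 8 were on the panel, lay between 0.0158 and 0.0312 in DNBS_Nissle samples, against 0.0354 to 0.0579 in healthy samples.

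The genes of fat cells were at lower values in DNBS_Nissle samples, with a wide spread among the healthy ones. Adipoq, the adipokine adiponectin, was at −5.50, −3.76, −3.49 and −4.24 in DNBS_Nissle samples, against −2.04, −0.39, −3.40 and −2.26 in healthy samples (−2.22 ± 0.83, limma adjusted p = 0.205). Retn, or resistin, was at −6.81, −5.20, −4.89 and −6.66 in DNBS_Nissle samples, against −3.36, −1.38, −5.45 and −3.41 in healthy samples (−2.49 ± 0.75, limma adjusted p = 0.121). Healthy sample 5 was the lowest and sample 4 the highest of the healthy group in both genes. Without healthy sample 5, Retn (−3.17) and Cfd (−2.71), the complement factor that adipocytes secrete, passed in limma. That fit was singled out after it was seen. Without healthy sample 4, Retn was at −1.8 and Cfd at −1.3, and neither passed. Lep, the adipokine leptin, was detected in 0 of 4 against 3 of 4 samples, with filled values in DNBS_Nissle samples 1 and 4. Of 6 tested adipocyte and adipokine genes, 0 were higher and none passed, beside 191 higher and 11 passing of all 457. Their median was −1.53, against −0.09 over all genes. Summed over the 5 adipocyte markers on the panel, levels lay between 0.961 and 1.73 in DNBS_Nissle samples, against 1.39 to 7.93 in healthy samples. Fabp4, with the highest mean level of them (0.04 in DNBS_Nissle samples, 1.15 in healthy samples), weighs most in this sum. The part of fat tissue in the sampled mucosa was not tested. Apoa1, the protein of high-density lipoprotein, was at −1.99 ± 0.72 and Apoa4 was detected in 1 of 4 against 4 of 4 samples.

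In all, 20 of the 568 panel genes (3.52%) were detected in at least 3 samples of 1 group and at most 1 of the other, 15 more often in DNBS_Nissle samples and 5 more often in healthy samples. Those detected in 4 of 4 against 0 of 4 were Camp, Il17a, Sele and Ptx3, a pattern recognition protein that myeloid and stromal cells release. Ptx3 had Ct values of 21.31, 27.45, 26.75 and 27.1 in DNBS_Nissle samples, against 31.54, 28.48, 31.0 and 29.3 in healthy samples. It was at least 3.57-fold higher, but sample 1 stood 5 cycles before the others and the bound was 1.34-fold without it. Clcf1, Ghrl and Tnfrsf25 were detected in 4 of 4 against 1 of 4 samples with Ct values close to the limit, and their bounds were 1.05-fold, 1.43-fold and 1.08-fold. Adora3, Fgf23 and Il12rb2 were detected in 3 of 4 against 0 of 4 samples. Of those detected more often in healthy mucosa, Cebpb, a factor of myeloid and acute-phase genes, had Ct values of 40, 29.42, 40 and 25.52 in DNBS_Nissle samples, against 25.32, 24.82, 26.1 and 25.05 in healthy samples. Both wells at 40 had no amplification, and the value of healthy sample 3 was filled. Ryr1 was detected in 1 of 4 against 4 of 4 and F2 in 1 of 4 against 3 of 4 samples. In two-sided Fisher's exact tests, 4 of 4 against 0 of 4 gave p = 0.0286, the smallest possible, and no gene passed after adjustment (0.657 over all 92 genes whose detection varied).

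**Figure D3:**
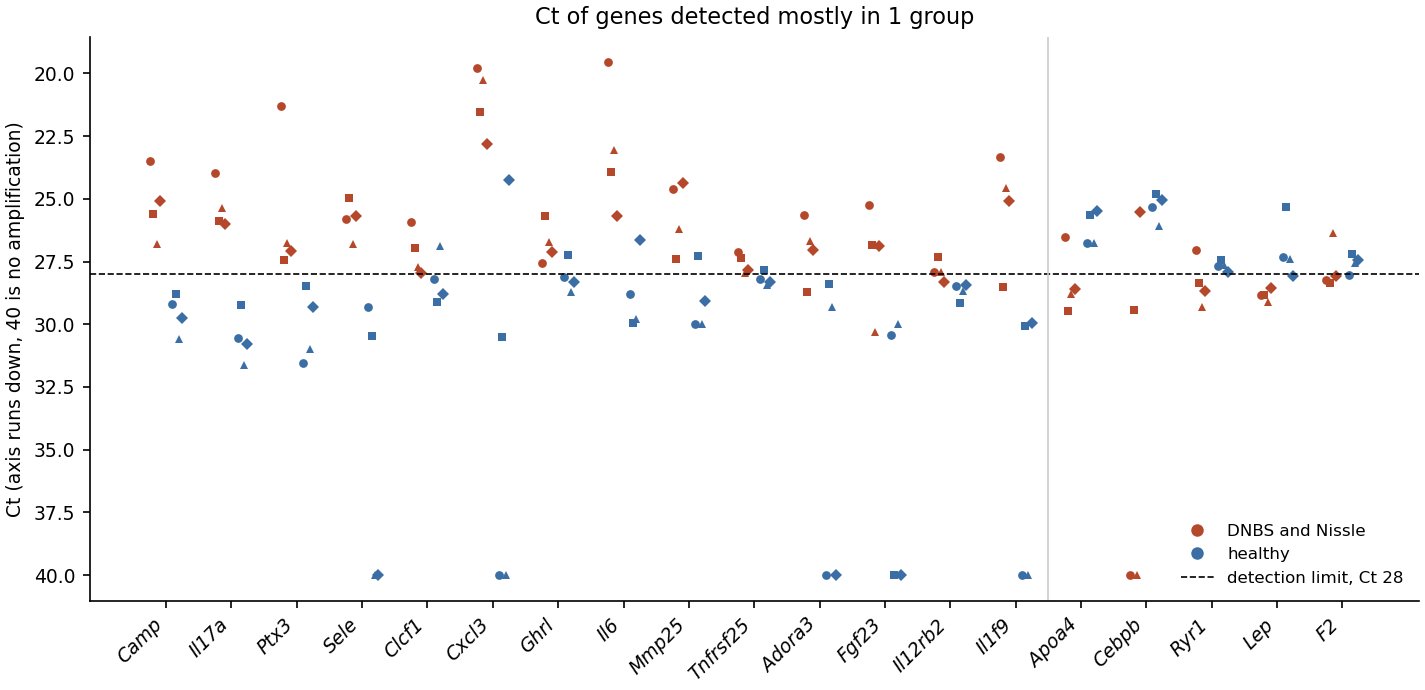
Ct values of the genes named in the text as detected mostly in 1 group, one symbol for each sample with the shapes of the plot of levels, DNBS_Nissle left of healthy. The axis runs down, so that more RNA is higher, and the dashed line is the detection limit of 28. Camp, Il17a, Ptx3 and Sele have all DNBS_Nissle samples above the line and all healthy samples below it.

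Over all 457 tested genes, 191 were higher, 11 passed (2.41%) and the median was −0.09. Over 27 gene lists, the highest median of the differences belonged to the neutrophil granule and calprotectin genes (3 of 3 tested higher, 2 passed, median 7.48). The 2 that passed were S100a8 and S100a9 of calprotectin, and the granule gene Ltf did not pass. Next came the neutrophil chemokines and receptors, and the genes of nitric oxide, haem and hypoxia (4 of 5 higher, 2 passed, 1.42). Selectins, integrins and adhesion molecules followed with 4 of 4 higher, 1 passed and a median of 0.94, then phospholipases A2 (3 of 4, 0.67), the interleukin 1 family (8 of 11, 1 passed, 0.51) and type 2 cytokines and eosinophil genes (6 of 8, 0.50). Medians of 0.20 to 0.32 belonged to macrophage products, apolipoproteins and lipoprotein receptors, CC chemokines, and epidermal and other growth factors. Bone morphogenetic proteins (5 of 13 higher, −0.20), the interleukin 17 and 22 axis (1 of 5, −0.25) and the B cell genes (1 of 2, −0.56) lay below 0. Of the 12 genes of the interleukin 17 and 22 axis on the panel, 5 were tested. Its median leaves out Il17a, detected in 4 DNBS_Nissle samples and 0 healthy samples, and Il22, which was also not tested. The sign of the median changed with the reference in the lists of the interleukin 6 family, the interferon gamma axis, activin and TGF-beta, the prostaglandin and leukotriene pathway, Toll-like receptors, haematopoietic growth factors, T cell genes, regulatory cytokines, MAP kinases and angiogenic genes. Between 4 and 26 of their genes were tested in each, and Inhbb alone passed among them.

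**Figure D4:**
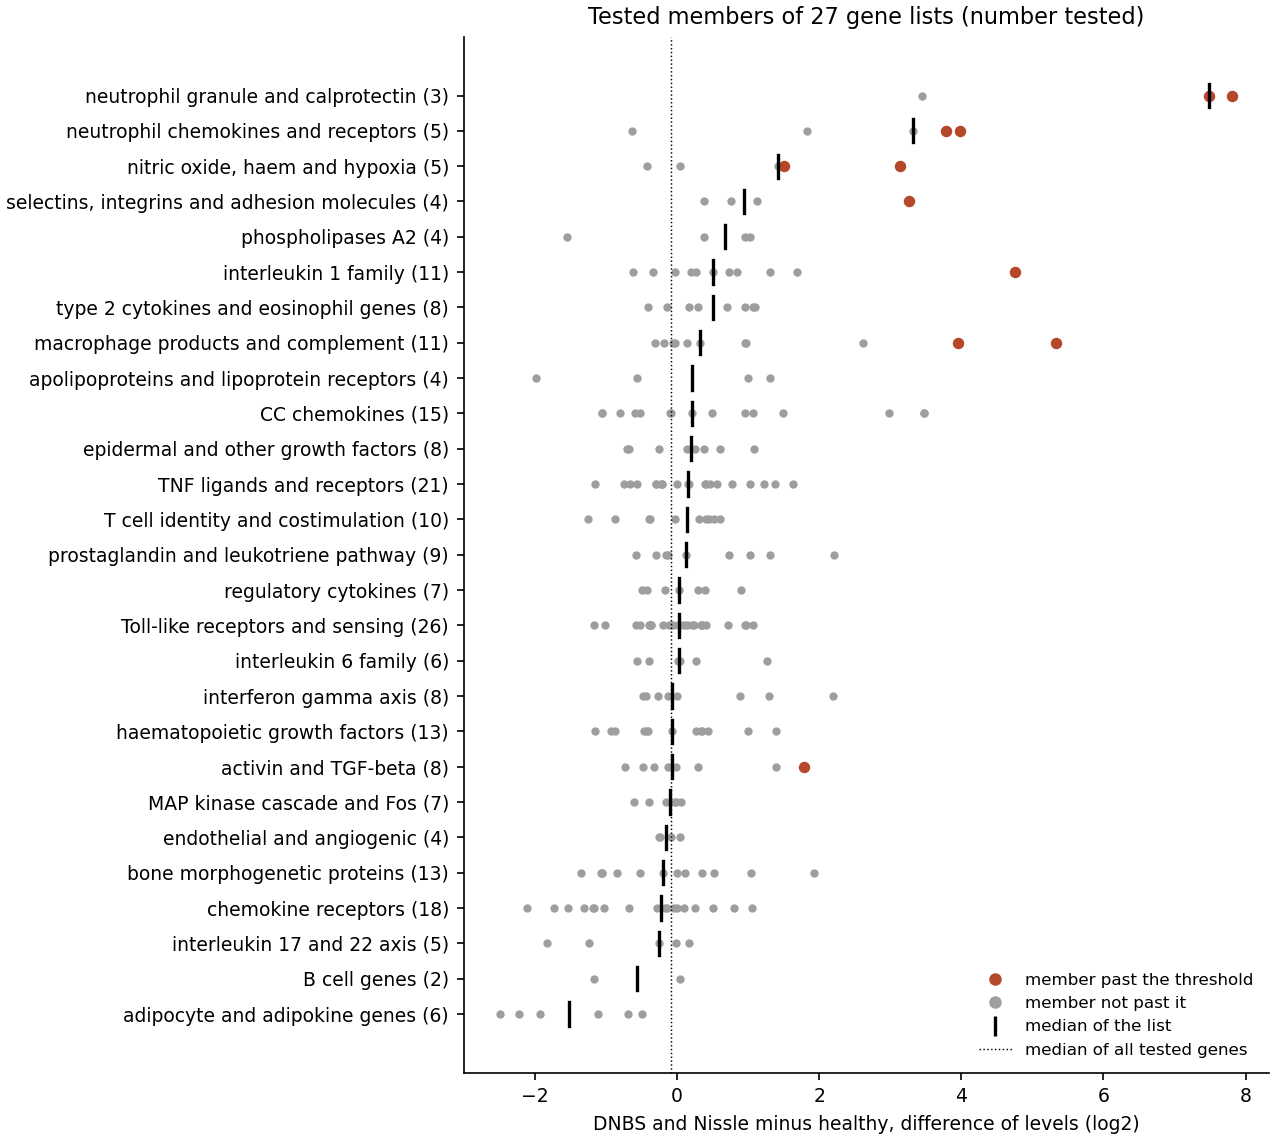
Differences of levels, DNBS_Nissle minus healthy (log2), for the tested members of 27 gene lists, sorted by the median of the list. Filled red points passed the threshold, black bars are medians and the dotted line is the median of all tested genes (−0.09). The neutrophil lists lie at the top and the adipocyte genes, all below 0, at the bottom.

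The summed level of 5 macrophage and monocyte markers, Chi3l3 among them, lay between 0.747 and 3.15 in DNBS_Nissle samples, against 0.709 to 1.11 in healthy samples. The 2 endothelial markers on the panel, Selp and Sele, summed to 0.0594 to 0.29 in DNBS_Nissle samples, against 0.00679 to 0.0153 in healthy samples. The B cell marker Cd180 was at 0.00713 to 0.0267 in DNBS_Nissle samples, against 0.0225 to 0.0395 in healthy samples, and the mast cell marker Kit at 0.131 to 0.492, against 0.316 to 0.559, with Fcer1a detected in none of the 8. Of 8 epithelial markers the panel held Krt8, a keratin of simple epithelia. It was at 3.61, 0.71, 4.14 and 4.07 in DNBS_Nissle samples, against 4.55, 3.45, 4.37 and 2.85 in healthy samples, so that it was present in all 8 samples and lowest in DNBS_Nissle sample 4. The part of cell composition in the differences above was not tested.

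The calls depended on single samples. Leaving out each of the 8 samples in turn, all 11 genes stayed higher, and Cxcl5, S100a8 and S100a9 passed in 7 of 8 fits. None of the genes passed without healthy sample 3, although the differences there were close to those of all samples, at 7.39 for S100a8, 7.34 for S100a9, 3.84 for Cxcl5 and 4.42 for Il1b, with a lowest adjusted p of 0.0621. Without DNBS_Nissle sample 1, 3 genes passed, 5 without healthy sample 4 and 6 without healthy sample 6. With both samples that held most filled values left out, 0 genes passed in limma (lowest adjusted p 0.155, 30 at an unadjusted p under 0.05). Selp passed in 6 fits, Spp1, Il1b and Chi3l3 in 5, Il8rb in 4, Nos2 in 3, and Inhbb and Hif1a in 1. Among the 11 genes, DNBS_Nissle sample 1 had the highest level of its group in 5 and sample 5 in 4, while sample 7 had the lowest in 6.

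The other DNBS groups were set against the same healthy samples, which the comparisons therefore share. S100a8 was at 7.81 ± 1.50 in DNBS_Nissle, 4.71 in the group with CEC and 6.49 ± 1.50 in DNBS alone, each minus healthy. Il1b was at 4.76, 1.87 and 3.71, Cxcl5 at 3.79, 2.67 and 2.68, Spp1 at 3.95, 0.98 and 2.83, and Selp at 3.26, 1.06 and 1.76 in the same order. Nos2 was at 3.13, 2.31 and 3.83 and Chi3l3 at 5.33, 3.47 and 5.34. On the lower side Il22ra2 was at −1.83, −1.61 and −1.28, and Il15 at −1.15, −0.95 and −0.95. By limma, 5 of 457 genes passed in DNBS against healthy (1.09%) and 0 of 458 in the group with CEC against healthy (0%, 25 at an unadjusted p under 0.05).

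The direct comparison of DNBS_Nissle with DNBS called 0 of 474 genes in limma (0%), with 7 at an unadjusted p under 0.05 and a lowest adjusted p of 0.995. For the 11 genes the differences, DNBS_Nissle minus DNBS, were positive in 9 and lay between −0.70 ± 0.72 for Nos2 and 1.50 ± 0.71 for Selp (± SE). A gene that passed against healthy in DNBS_Nissle and not in DNBS was therefore not shown to differ between these groups.

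**Figure D5:**
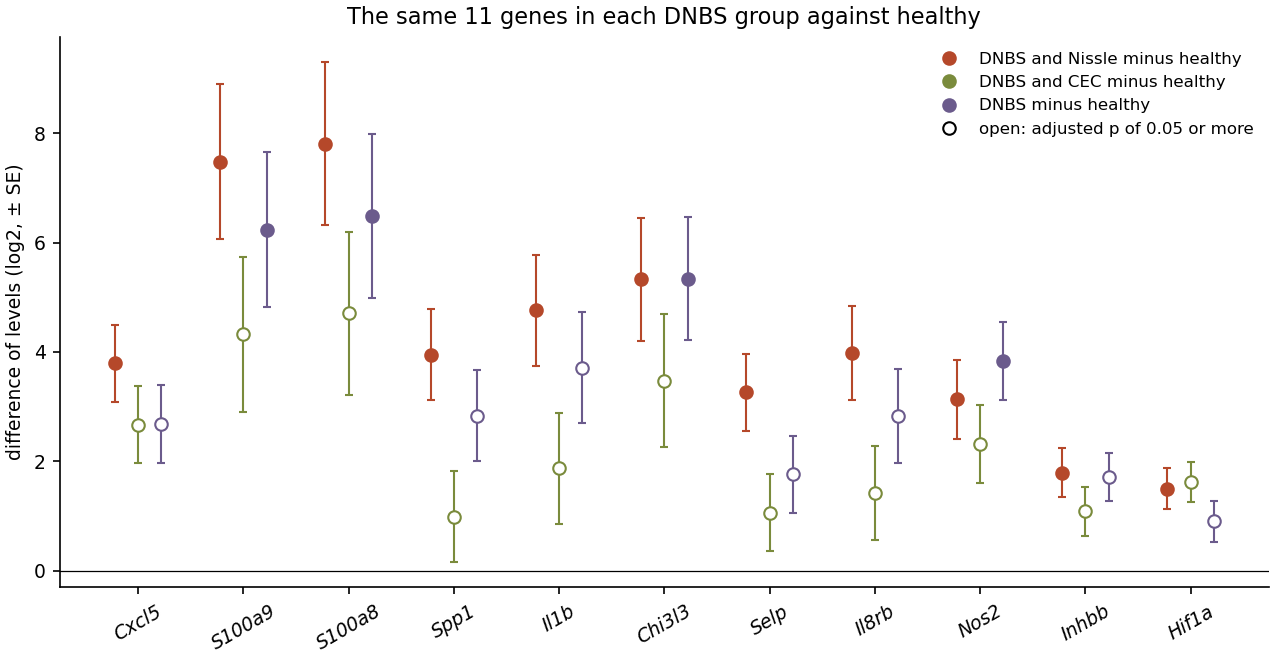
Differences of levels from healthy mucosa (log2, ± SE) of the 11 genes that passed in DNBS_Nissle, for each DNBS group. Filled points passed in their own comparison. All points lie above 0, and the comparisons share their 4 healthy samples.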

How the data were processed

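Colonic mucosa RNA was measured on the TaqMan OpenArray Mouse Inflammation Panel, per the labels' protocols. The authors deposited raw cycle thresholds (unit recorded as other) with no normalization, and 40 stands for no amplification. Thresholding software was not given in the sources used here. A Ct carries no molecule number, so its depth is unknown and no counting error is given. Of 10368 values, 194 were, within 2e-06, the average of their group's remaining samples (147 in these 8 samples) and were read as filled, and 532 had 4 or fewer decimals. The digit pair 40 stood in the decimals of 15 values below 40, against a median of 457 values for the other pairs. A Ct that lost this pair would be off by less than 1 cycle, and which values did is unknown. Both kinds were kept and then left out as alternatives.

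Levels were the mean Ct of 13 reference genes (19 assays) minus the Ct of the gene, with a Ct above 28 left out as not detected. For genes with several assays, those detected in most of the 16 samples were averaged. limma 3.58.1 in R 4.3.3 (lmFit and eBayes) fitted all 16 samples in 4 groups, with 12 residual degrees of freedom, and Benjamini-Hochberg adjusted p-values over the 457 genes that 3 or more samples of each group detected. The threshold was 0.05 and the 16 control genes were not tested. A detection difference was detection in at least 3 samples of 1 group and at most 1 of the other. Its least fold took undetected values at the limit. The fit was tried on simulated normal values of genes detected in all 16 samples, with the same spread in every group. Undetected values, filled values and unequal spread between groups were not simulated, so it does not show how the fit handles them. Other steps used Python 3.11.15, pandas 2.3.3, SciPy 1.17.1 and Matplotlib 3.10.9.

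Genes were named where they passed, were among the 20 higher and 10 lower genes with the lowest p, differed in detection, belonged to a fixed set of cytokine and inflammation genes, or were among the up to 4 members of a list with the largest difference. Cell markers and a few genes named for a count were added, among them Il8ra and Cx3cr1 after their values were seen. Genes and lists were chosen with earlier results of these data known. Some genes, such as some reference genes, are not reported here by name.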

Additional observations from a re-analysis of the deposited data

Results flagged for a closer look

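Among the genes named by rule, 226 groups of 4 samples were examined for a sample that stands apart from the other 3 by Dixon's test, which chance gives in about 1 in 20 groups, and 19 were found. None of the 19 values was a filled one. For Inhbb and for Bmp3 below, however, DNBS_Nissle sample 1 held a filled value among the other 3. Among the genes that passed, Inhbb in DNBS_Nissle sample 4 was at −5.72, with the others between −6.23 and −6.17, and Hif1a in DNBS_Nissle sample 7 was at −0.74, with the others between 0.0 and 0.15.

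DNBS_Nissle sample 4 also stood apart in Mapk8 at −5.67 (others −2.77 to −2.71), Erbb2 at −4.96 (−2.83 to −2.54), Ctf1 at −6.61 (−7.74 to −7.55) and Bmp3 at −3.8 (−1.37 to −1.14). In Bmp3 the gap came from 1 of the 2 assays, with a Ct of 24.29 in that sample against 21.04 in the other assay. DNBS_Nissle sample 5 was the highest of its group in Xcr1 at −3.59 (−7.28 to −6.77) and Cd28 at −6.87 (−8.01 to −7.85). DNBS_Nissle sample 1 was the lowest of its group in Muc1 at −2.55 (−1.12 to −0.93).

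In healthy mucosa, sample 3 was low in Muc1 at −3.58 (−2.92 to −2.81) and Ctf1 at −7.79 (−6.58 to −6.5). Healthy sample 4 was high in Apoa1 at −3.49 (−4.62 to −4.44) and Itgam at −2.62 (−4.3 to −4.08), and low in Fos at −0.64 (0.0 to 0.11). Healthy sample 5 was high in Pla2g2d at −3.77 (−4.66 to −4.55) and Cd4 at −4.46 (−5.27 to −5.16). Healthy sample 6 was low in Il1rl1 at −5.7 (−5.36 to −5.3) and Itgal at −5.75 (−4.65 to −4.44), and high in Ccl24 at −6.01 (−6.38 to −6.35).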

How the results depend on the processing

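The 11 genes that rose kept their direction under every alternative in which they were fitted. By limma, the number of genes that rose, these 11 or others, was 3 with a detection limit of 26. Of the 11, 5 were fitted there. The number was 0 with the 2 samples that held most filled values left out. Leaving out 1 sample gave 0 (without healthy sample 3) to 11 (without DNBS_Nissle sample 7, where 9 of the main 11 remained). All other settings except the replicate block, given at the end, gave 9 to 16, with 16 in a fit of the 8 samples alone, where all 11 remained. Between 9 and 11 of the main 11 remained in these other settings. Setting undetected values to the limit, chosen after seeing the data, gave 10. The number of genes that fell, 0 with all samples, was 2 with the 3 most stable reference genes, 3 with the global mean, 4 with quantile normalization, 1 with a limit of 26, 1 with a limit of 30, 1 with any Ct under 40, 1 with no filter, 2 without values of 4 or fewer decimals and 4 in the 8 samples alone. Leaving out 1 sample gave 0 to 5 (without DNBS_Nissle sample 5). Detection differences, 20 at a limit of 28, were 35 at a limit of 26 (7 shared), 15 at 30 (5 shared) and 4 at any Ct under 40 (0 shared), and 16 to 25 with 1 sample left out. Some small differences turned sign: Mapk8 was 0.0183 and Fos 0.086 with Gapdh alone as reference. Leaving out 1 sample moved Mapk8 between −0.477 and 0.569, Fos between −0.272 and 0.0196 and Tgfb1 between −0.0159 and 0.627. The cause was not tested. The groups share the sample numbers 4 and 5, whose deviations had r = 0.22 and −0.22 over 412 genes, so the numbers were not read as pairs. With the replicate number as a block, 0 genes passed in either direction (lowest adjusted p 0.086) and Fos was 0.277. A Ct near 28 limits precision, and 4 samples a group gave a median 95% half-width of 0.98 on the log2 scale.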
